A study of Homo sapiens with 6 samples.

Results

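Aminoacyl-tRNA synthetases are the enzymes that join each amino acid to its own tRNA, and their genes were compared here between MOLM-13 cells given the degrader DEG-35 and cells given its solvent. The 36 gene symbols comprise 18 enzymes of the cytosol, 16 of the mitochondrion and 2, GARS (glycine) and KARS (lysine), whose single gene serves both compartments. They were matched by exact symbol to the authors' deposited table of genes that differed between the groups, and 13 of the 36 have a row there. That table lists 6831 genes out of an implied 15064 that had been tested.

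MOLM-13 is an established line of human acute myeloid leukaemia cells carrying an MLL (KMT2A) fusion, labelled wild type in all samples. One group of 3 RNA-seq libraries came from cells held for 24 h with 50 nM DEG-35, a cereblon-recruiting degrader of the zinc-finger factor IKZF2 and the kinase CK1α, and the other group of 3 from cells held for 24 h with DMSO. The study asked which genes DEG-35 regulates. Whether the replicate libraries stem from separate cultures is not given in the labels, and the p-values may therefore reflect only technical spread. All cells are of 1 line, and nothing here tells whether other leukaemia cells respond alike.

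A gene is called listed below when it has a row in the authors' deposited table, that is, an adjusted p below 0.05. A gene without a row either missed that threshold or was not tested. Values are log2 fold changes, taken as DEG-35 over DMSO. The header names no numerator, and in the other order all directions given here would be opposite. Errors are standard errors (SE) worked back from the deposited p-value. No level and no value per library was analysed, so the depth behind each value is unknown and the cell type could not be checked by marker levels. Of 10 markers of myeloid leukaemia cells 6 were listed (60%, against 45.3% of all genes tested), 5 higher and 1 lower. Among them were ITGAM at 1.47 ± 0.0956, CD4 at 0.61 ± 0.0561, CD33 at 0.67 ± 0.0749 and MPO at -0.36 ± 0.0965 in the authors' deposited table. Of 13 markers of other cells 2 were listed (15.4%, against the same 45.3%), NCAM1 at -0.64 ± 0.0745 and PECAM1 at 0.38 ± 0.102 in the authors' deposited table. The part of these markers in the results below was not tested.

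Synthetases fall into a pair of unrelated folds, class I and class II, and 8 of the cytosolic or dual enzymes sit together in the multisynthetase complex. When amino acids run short, uncharged tRNA activates the kinase GCN2, phosphorylation of eIF2α slows translation in general, and translation of the transcription factor ATF4 goes up. ATF4 binds DNA elements of the type TTGCATCA near the start of its target genes. Many cytosolic synthetase genes are known ATF4 targets, together with amino acid transporters and enzymes of serine and asparagine synthesis. The mitochondrial enzymes are also encoded in the nucleus but charge the tRNAs of the organelle's own translation.

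Of the 9 members that fell 8 have a promoter window, and 5 of these hold TTGCATCA in it, so the sites are shown first. Promoter windows, from 250 bases before to 50 bases after each RefSeq start on GRCh38.p14, were found for 30 of the 36 members. DARS, LARS, VARS, YARS, AARS2 and VARS2 are not covered. Each line gives a gene and 30 bases on its own strand, 5′ to 3′, with the element in capitals. In the first 6 lines it is TTGCATCA in either orientation, and in GARS the looser TGATGNAA, which includes TTGCATCA when read on the other strand.
AARS, chr16:70289675-70289704, minus strand: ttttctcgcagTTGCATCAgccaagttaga
MARS, chr12:57488053-57488082, plus strand: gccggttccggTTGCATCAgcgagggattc
CARS, chr11:3057407-3057436, minus strand: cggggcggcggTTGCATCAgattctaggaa
TARS, chr5:33440956-33440985, plus strand: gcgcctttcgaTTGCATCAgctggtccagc
IARS, chr9:92293692-92293721, minus strand: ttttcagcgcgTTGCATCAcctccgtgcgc
NARS, chr18:57621804-57621833, minus strand: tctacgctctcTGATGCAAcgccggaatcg
GARS, chr7:30594834-30594863, plus strand: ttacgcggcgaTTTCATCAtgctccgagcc

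The element TTGCATCA was found, on either strand, in the windows of 5 of the 8 lower members that have one, in none of the 4 higher members and in 1 of the 18 members that were not listed. Over all 35116 RefSeq windows of the same length 0.866% hold it, or 1.08% of genes when the windows of a gene are pooled as for the members, and among genes of the table with a window 0.869% of the lower and 0.719% of the higher genes do (matched by exact symbol, so that renamed genes such as AARS are not counted there). By compartment, 6 of 16 cytosolic or dual members and 0 of 14 mitochondrial members hold it. Direction and compartment are mixed in these counts. HARS2 and TARS2 among the higher members, and most unlisted members with a window, are mitochondrial. Among cytosolic or dual members the higher QARS and SARS lack the element, and of the unlisted ones NARS alone holds it. The parts of direction and compartment were not tested. The first base of TTGCATCA lay 13 bases upstream of the start in IARS, 4 in MARS and 2 in CARS. It lay 2 bases downstream in TARS and 14 in NARS, whereas in AARS it lay 187 bases upstream. The looser TGATGNAA, present in 3.62% of all windows and 4.46% of all genes, added GARS, 33 bases upstream of one of its annotated starts, and the unlisted YARS2, 197 bases upstream. The E-box CACGTG, bound by MYC and related factors, was in the windows of 4 of 30 members (13.3%). It was in 7.26% of all windows, or 8.77% of all genes, and in 12.7% of the genes of the table with a window, a share near that of the members. Of these 4, IARS was lower and CARS2, EARS2 and MARS2 were not listed. A match is a run of letters, not a measured binding site, and these counts come without a test. RARS2 and WARS, which fell, held no match to the ATF4-type elements in their windows.

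**Figure D1:**
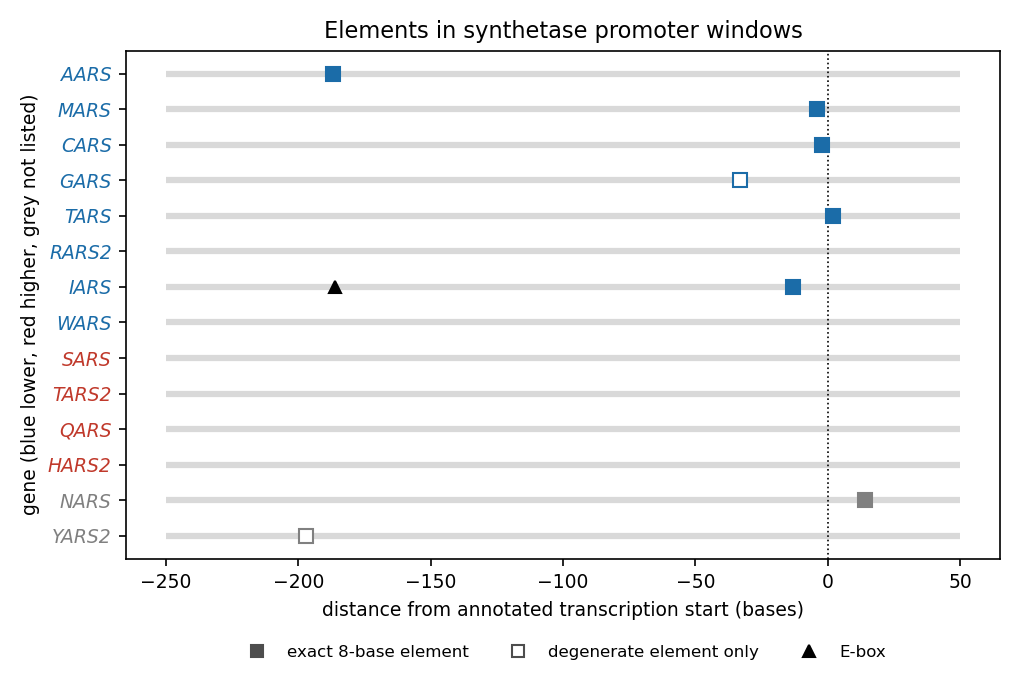
Elements in the promoter windows of all listed members with a window and of NARS and YARS2, unlisted members that hold an ATF4-type element. The unlisted CARS2, EARS2 and MARS2, which hold an E-box only, are not drawn. The x axis is the distance from the annotated transcription start in bases, and grey bars span the window. Filled squares are the exact 8-base element, open squares a match to the degenerate form alone, and triangles E-boxes. Filled squares appear in 5 blue (lower) genes and in NARS, and in no red (higher) gene. Where a gene has several windows, matches from each are drawn at their distance from that window's start.

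The windows of AARS, the largest fall, and QARS, the largest cytosolic rise, are shown as examples picked by their values. The 250 bases before the start of each are given on the gene's strand, with the element in capitals. AARS has it once and QARS has none, as most windows do, since 0.866% of all RefSeq windows hold it. The part of the element in either change was not tested.
AARS, chr16:70289507-70289756, minus strand: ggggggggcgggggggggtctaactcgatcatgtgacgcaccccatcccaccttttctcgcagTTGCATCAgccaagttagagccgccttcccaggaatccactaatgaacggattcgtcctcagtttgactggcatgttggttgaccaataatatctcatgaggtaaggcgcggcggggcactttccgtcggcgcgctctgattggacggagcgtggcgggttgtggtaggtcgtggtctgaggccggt
QARS, chr3:49104758-49105007, minus strand: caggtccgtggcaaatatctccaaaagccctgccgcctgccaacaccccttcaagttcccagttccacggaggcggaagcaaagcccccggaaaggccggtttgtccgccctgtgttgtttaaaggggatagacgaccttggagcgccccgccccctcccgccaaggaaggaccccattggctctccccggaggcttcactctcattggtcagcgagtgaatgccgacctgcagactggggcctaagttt

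Cytosolic synthetase genes that changed were mostly lower with DEG-35. Of 18, 9 were listed (50%). These comprised 7 falls and 2 rises, and their median was -0.23 on the log2 scale in the authors' deposited table. Over all genes tested 45.3% were listed, 24% lower and 21.4% higher, and the median over listed genes was -0.19, so the cytosolic share and median lie near those of the whole table. The cytosolic majority is not firm against scaling, since a shift of all log2 fold changes up by 0.3 would make 5 of the 9 higher and 4 lower. The median absolute log2 fold change was 0.36 for listed cytosolic members and 0.47 over all listed genes, but their median implied SEs, 0.0600 and 0.0891, differ too, so that smaller changes could pass among the members. The difference was not tested. Across all 36 members, 10 passed an adjusted p of 0.01, as did 36.8% of all genes tested, and 7 passed Bonferroni adjustment, as did 20.9%. A change of at least 0.5 on the log2 scale was reached by 4 (AARS, MARS, CARS and HARS2), against 21.3% of all genes tested, and one of at least 1 by 0, against 8.3%.

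AARS, which charges alanine tRNA, fell most. In the authors' deposited table it stood at -0.77 ± 0.0545 (adjusted p = 1.33e-43), a 1.70-fold lower level that placed it 411th of 6831 genes by p. MARS, the methionine enzyme, followed at -0.69 ± 0.0543 in the authors' deposited table (adjusted p = 1.94e-35), 1.61-fold lower. The 95% intervals of both, -0.88 to -0.66 and -0.80 to -0.58, overlap, so their order is not settled. The interval of CARS, -0.64 to -0.37, overlaps that of MARS but not that of AARS.

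CARS, the cysteine enzyme, fell by 0.51 ± 0.0670 on the log2 scale (adjusted p = 5.33e-13) and YARS, the tyrosine enzyme, by 0.47 ± 0.0583 (adjusted p = 1.30e-14), both in the authors' deposited table. These are levels about 1.42-fold and 1.38-fold lower. The remaining cytosolic falls were small. TARS (threonine) stood at -0.23 ± 0.0618, IARS (isoleucine) at -0.20 ± 0.0622 and WARS (tryptophan) at -0.19 ± 0.0600 in the authors' deposited table, with adjusted p-values of 5.38e-04, 0.00335 and 0.00541. The 95% intervals of these 3 overlap. WARS is also known as an interferon-induced gene.

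QARS and SARS went the other way. QARS, which charges glutamine tRNA, rose by 0.36 ± 0.0547 (adjusted p = 6.03e-10 in the authors' deposited table), 1.28-fold, and is as precisely measured as AARS and MARS. SARS, the serine enzyme, rose by 0.17 ± 0.0610 (adjusted p = 0.0149 in the authors' deposited table). Of the dual enzymes, GARS fell by 0.32 ± 0.0608 (adjusted p = 1.01e-06 in the authors' deposited table). KARS was not listed.

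The other 9 cytosolic genes were not listed. DARS (aspartate), EPRS (glutamate and proline in a single protein), FARSA and FARSB (the pair of subunits of the phenylalanine enzyme), HARS (histidine), LARS (leucine), NARS (asparagine), RARS (arginine) and VARS (valine) have no row. At the implied SEs of the listed cytosolic genes, 0.0543 to 0.0670, an absolute log2 fold change of 0.12 to 0.15 would have been enough for a row. The SEs of unlisted genes are unknown, so this bounds nothing for them.

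**Figure D2:**
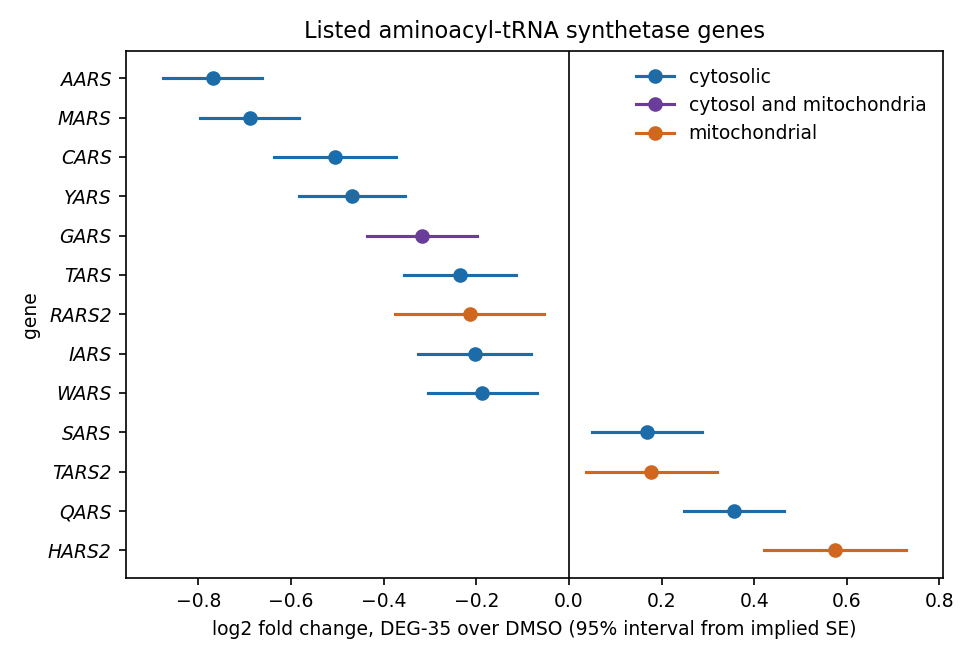
Log2 fold changes (x axis, DEG-35 over DMSO) of the 13 listed synthetase genes, ordered from the largest fall to the largest rise. Points are the deposited values, bars 95% intervals from the implied SE, and colours the compartment. AARS at -0.77 and HARS2 at 0.57 are the ends of the range, and 9 of 13 points lie left of 0.

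Few mitochondrial synthetase genes were listed. Of 16, 3 were (18.8%, against 45.3% of all genes tested), 2 higher and 1 lower. HARS2, the mitochondrial histidine enzyme, had the largest rise of any member, 1.49-fold, at 0.57 ± 0.0785 (adjusted p = 2.69e-12 in the authors' deposited table). TARS2 (threonine) rose by 0.18 ± 0.0717 and RARS2 (arginine) fell by 0.21 ± 0.0822, with adjusted p-values of 0.0306 and 0.0225 in the authors' deposited table. AARS2, CARS2, EARS2, FARS2, IARS2, LARS2, MARS2, NARS2, PARS2, SARS2, VARS2, WARS2 and YARS2 have no row. The implied SEs of the 3 listed mitochondrial genes, 0.0717 to 0.0822, all exceed those of the 9 cytosolic ones, and at these SEs a row needed an absolute log2 fold change of 0.16 to 0.19. The part of precision in the lower share of mitochondrial genes was not tested, nor was the difference between the compartments.

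**Figure D3:**
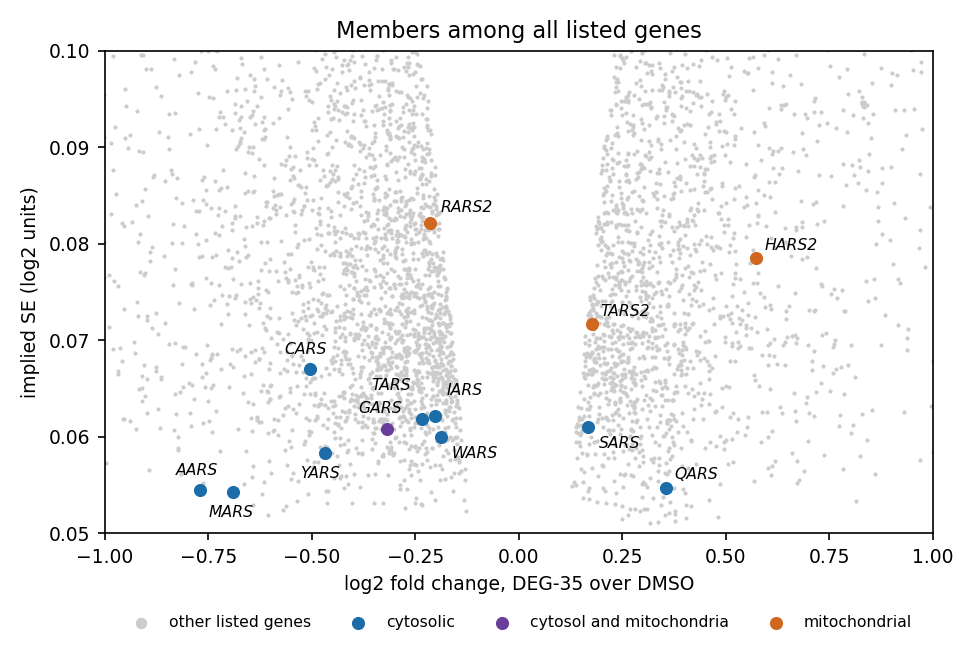
Implied SE (y axis, log2 units) against log2 fold change (x axis) for listed genes that changed by at most 1 on the log2 scale and have an implied SE of at most 0.1. Grey points are other genes, and 3051 lie outside this range or have no implied SE. Cytosolic members and GARS lie at the precise lower edge and the 3 mitochondrial members above them.

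For 13 amino acids the members include both a cytosolic and a mitochondrial gene. In 7 of these the cytosolic gene alone was listed, in 2 the mitochondrial gene alone, in 1 both and in 3 neither, beside listed shares of 50% for cytosolic and 18.8% for mitochondrial members and 45.3% for all genes tested. Threonine is the amino acid with both, and its genes moved in opposite directions. TARS stood at -0.23, with a 95% interval from -0.36 to -0.11, and TARS2 at 0.18, from 0.04 to 0.32, in the authors' deposited table, and the intervals do not overlap. The opposite signs are not firm against scaling. After a shift up by 0.3 both would be higher, TARS at 0.066 and TARS2 at 0.48. After a shift down by 0.3 both would be lower, at -0.53 and -0.12. TARSL2, a further threonine enzyme of the cytosol that is not among the 36, was higher at 0.61 ± 0.131 (adjusted p = 1.57e-05 in the authors' deposited table).

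HARS2 lies head to head with HARS, its cytosolic counterpart, on chromosome 5. Their RefSeq starts are separated by 84 bases, shown here on the plus strand, the strand of HARS2, because both genes share this stretch while only HARS2 was listed.
HARS to HARS2, chr5:140691371-140691454, plus strand: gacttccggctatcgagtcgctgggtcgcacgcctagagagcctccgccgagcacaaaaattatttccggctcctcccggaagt
It holds none of the elements searched. In GENCODE 29 exons of both genes share 437 bases on opposite strands, so without stated strand counting reads there cannot be told apart. HARS2 also shares 152 bases with ZMAT2 on the same strand, where strand counting would not separate the reads.

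Overlaps touch other members too. Of the 13 listed members 8 share exonic bases with another gene in GENCODE 29. MARS shares 519 bases with ARHGAP9, which was listed, and 355 with DDIT3, which was not, and YARS shares 396 with S100PBP, which was listed. CARS, GARS and WARS overlap genes on the opposite strand, and QARS and TARS2 overlap a microRNA gene each. AARS, IARS, SARS, TARS and RARS2 share none.

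Both enzyme classes and the multisynthetase complex held rises and falls. Of 18 class I members 7 were listed, 6 lower and 1 higher, or 3 lower and 4 higher after a shift up by 0.3. Of 17 class II members 6 were listed, 3 lower and 3 higher, or 5 lower and 1 higher after a shift down by 0.3 and 2 lower and 4 higher after a shift up. The listed shares, 38.9% and 35.3%, lie below the 45.3% of all genes tested. EPRS, which joins both folds, was not listed. Within the complex 3 of 8 enzymes were listed and they disagreed in direction, with MARS at -0.69, IARS at -0.20 and QARS at 0.36 in the authors' deposited table. The scaffold proteins that hold it together split as well. EEF1E1 (AIMP3), which binds the methionine enzyme, fell by 0.53 ± 0.0830 and AIMP2 rose by 0.18 ± 0.0654 in the authors' deposited table, with adjusted p-values of 1.78e-09 and 0.0146, and AIMP1 was not listed. Of the 12 cytosolic or dual enzymes outside the complex 7 were listed (58.3%, against 45.3% of all genes tested), 6 of them lower, or 4 after a shift up by 0.3.

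Of 25 ATF4-program genes that are not synthetases 14 had a row (56%), 11 of them lower and 3 higher, also under a shift of 0.3 either way, and their median was -0.64. Over all genes tested 45.3% had a row, 24% lower and 21.4% higher. PHGDH, the first enzyme of serine synthesis, was 3.39-fold lower at -1.76 ± 0.0746 and PSAT1, the next one, 1.92-fold lower at -0.94 ± 0.0617 in the authors' deposited table. DDIT4, an mTORC1 inhibitor gene, was higher at 0.84 ± 0.0597 in the authors' deposited table. ATF4 mRNA itself was lower at -0.46 ± 0.0531 and ASNS, the asparagine synthetase gene, at -0.93 ± 0.0698 in the authors' deposited table. The rises besides DDIT4 were SESN2 at 0.67 ± 0.0875 and PPP1R15A at 0.51 ± 0.102 in the authors' deposited table. ATF4, ASNS, SESN2 and PPP1R15A are named here after their values were seen. DDIT3, ATF3 and ATF5 were not listed.

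All 9 listed amino acid transporter genes, of 10, fell, under either shift of 0.3 too, with a median of -0.72, where 24% of all genes tested were lower. SLC1A5, a glutamine carrier, was 2.04-fold lower at -1.03 ± 0.0723, SLC7A1, a carrier of cationic amino acids, stood at -0.79 ± 0.0625 and SLC7A11, the cystine carrier, at -0.84 ± 0.0876 in the authors' deposited table. SLC43A1 was not listed. Beside the transporters' median, that of listed cytosolic synthetases was -0.23, and only the largest synthetase falls, such as that of AARS at -0.77 in the authors' deposited table, came near it. The 3 elements were searched in the same way in these lists. TTGCATCA was in the windows of 2 of 21 ATF4-program genes and 2 of 9 transporter genes, against 1.08% of all genes. TGATGNAA was in 4 and 5, against 4.46%, and the E-box CACGTG in 2 and 3, against 8.77%. Of 15 RNA polymerase III genes with a window 0 held either ATF4-type element and 6 held the E-box. Of 14 tRNA maturation genes 0 held either and 1 held the E-box. These counts come without a test. The ATF4-program genes were chosen as such, and the transporters were introduced above as ATF4 targets. A share of ATF4-type elements above that of all genes could therefore follow from the choice of genes.

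Genes acting before and after aminoacylation were listed in both directions. In starvation sensing 3 genes rose and 4 fell among 7 listed of 11 (45.3% of all genes tested were listed), but all 7 would be higher after a shift up by 0.3. They include the eIF2 subunits EIF2S3 at 0.38 ± 0.0616 and EIF2S2 at -0.25 ± 0.0611, and the GCN2 inhibitor IMPACT at 0.37 ± 0.0781 in the authors' deposited table. EIF2AK4, the gene of GCN2 itself, was higher too, at 0.30 ± 0.0740 in the authors' deposited table, and is named after its value was seen. After a shift down by 0.3, 2 of the 7 would be higher and 5 lower. Among the factors that deliver charged tRNA to the ribosome, EEF1A1 at 0.44 ± 0.0639, EEF1G at 0.38 ± 0.0524 and EEF1B2 at 0.30 ± 0.0538 were higher and the mitochondrial TSFM lower at -0.27 ± 0.0645 in the authors' deposited table, while EEF1D and TUFM were not listed. Of 16 tRNA maturation genes 6 were listed (37.5%, below the 45.3% of all genes tested), 5 lower. They include the RNase P or MRP subunit genes RPP25 at -0.91 ± 0.0895, POP7 at -0.67 ± 0.107 and POP4 at -0.34 ± 0.0732, and the 3′ processing gene ELAC1 at 0.36 ± 0.128 in the authors' deposited table. RNA polymerase III, which transcribes tRNA genes, had 11 of 20 genes of its subunits, factors and repressor listed (55%, against 45.3% of all genes tested), 8 lower and 3 higher, or 4 and 7 after a shift up by 0.3. Among them were POLR3K at -0.74 ± 0.0837, GTF3C5 at -0.64 ± 0.0900 and POLR3D at 0.40 ± 0.0685 in the authors' deposited table. The 8 lower genes include the repressor MAF1, at -0.26 ± 0.0829 in the authors' deposited table, named after its value was seen.

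Genes that correct or recycle tRNA charging were divided. AARSD1, an alanyl-tRNA editing gene, stood at 0.24 ± 0.0731 and DTD1, which removes D-amino acids from tRNA, at -0.20 ± 0.0821 in the authors' deposited table. PTRHD1 stood at 0.30 ± 0.115 and PTRH2, a peptidyl-tRNA hydrolase gene, at -0.24 ± 0.0868 in the authors' deposited table. QRSL1, GATB and GATC, which make glutaminyl-tRNA in mitochondria in place of a synthetase, and MTFMT, which formylates the initiator tRNA there, were not listed.

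**Figure D4:**
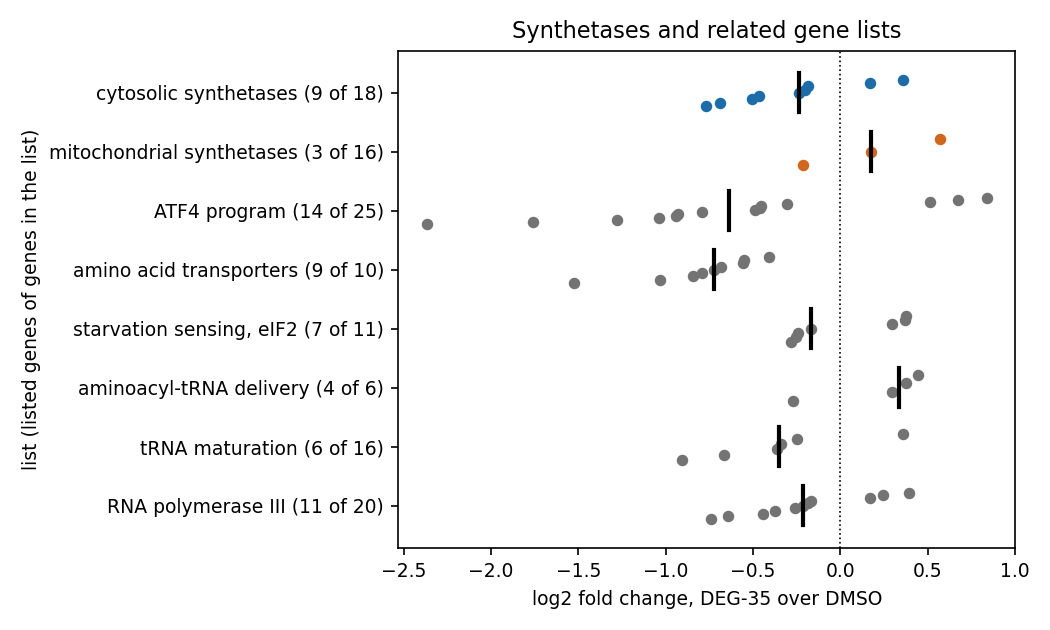
Log2 fold changes (x axis, DEG-35 over DMSO) of the listed genes in each list (y axis, with listed genes of genes in the list). Points are genes and black bars medians over listed genes. The median was -0.23 for cytosolic synthetases, 0.18 for the 3 mitochondrial ones, -0.64 for the ATF4 program and -0.72 for transporters.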

How the data were processed

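RNA from 6 MOLM-13 samples, 3 per group by the treatment in the sample titles, went into mRNA libraries (SMARTer kit), as the labels' protocols state. The submitters' processing notes name STAR, featureCounts, DESeq2 and the build hg19, without versions, order or strand setting. The authors deposited 1 table of log2 fold changes with raw and adjusted p-values per gene, per the file headers, which holds only genes with an adjusted p below 0.05. Library depths cannot be had from it. Adjusted p-values were used as deposited, adjusted over all genes the authors tested. Their number, 15064, follows from the Benjamini-Hochberg ranks (deviation at most 0.0413%).

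For the implied SE, the size of the log2 fold change was divided by the z value that its two-sided p-value corresponds to. It assumes a Wald test, which no source states. The calculation recovered the SE in simulated data built with such a test. That cannot show whether the deposited p-values came from one. Intervals are 95%.

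Members and related lists were chosen with earlier results of these data known. All members are named. From each related list the 3 genes lowest in adjusted p and the top gene against the majority were named, and lists of at most 6 genes were given in full. Genes added after their values were seen are marked where they appear. Some genes are not reported here. Lists were described by counts and medians, with no test of a list. Promoter windows came from RefSeq (GRCh38.p14), matched by symbol, and exon overlaps from GENCODE 29, both on another build than hg19. Computations used SciPy 1.17.1, NumPy 2.4.6 and pandas 2.3.3 under Python 3.11.15, and figures Matplotlib 3.10.9. Alternatives were stricter thresholds, a minimum change, shifts of all log2 fold changes by 0.3, a maximum implied SE of 0.1 and accepting synonyms.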

Additional observations from a re-analysis of the deposited data

How the results depend on the processing

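Of the 13 listed members, 10 also passed an adjusted p of 0.01 and 7 passed Bonferroni adjustment over 15064 tests, while 4 reached an absolute log2 fold change of 0.5 and 0 reached 1. Among cytosolic genes the 2 higher and 7 lower became 1 higher (SARS lost) at an adjusted p of 0.01, 1 and 4 under Bonferroni, 0 and 3 at a change of 0.5, and 0 and 0 at a change of 1. The mitochondrial 2 higher and 1 lower became 1 and 0 at an adjusted p of 0.01, under Bonferroni and at a change of 0.5, and 0 and 0 at a change of 1. These settings are stricter by construction. An implied SE of at most 0.1 and accepting synonyms left the counts of members as they were.

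The scaling factors are unknown. Under a shift up by 0.3, applied to listed genes alone, the cytosolic counts became 5 higher and 4 lower and the mitochondrial lower count 0. The median of listed cytosolic genes became 0.066, and TARS (0.066), IARS (0.10), WARS (0.11), RARS2 (0.086), PTRH2 (0.061), DTD1 (0.10), EIF2S2 (0.047) and TSFM (0.031) changed sign. Shifted down by 0.3, 1 cytosolic gene was higher, the mitochondrial genes were 1 higher and 2 lower (median -0.12), and SARS (-0.13), TARS2 (-0.12), AIMP2 (-0.12), AARSD1 (-0.055) and EEF1B2 (-0.0030) changed sign. Without a shift, counting GARS as mitochondrial turned the median of the listed mitochondrial genes from 0.18 to -0.018. AARS, MARS, CARS, YARS, GARS, QARS and HARS2 kept their sign under both shifts and passed Bonferroni. Related genes named only after their values were seen were not followed one by one under these settings.

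No paired analysis was possible because the table holds the authors' comparison without values per library, and leaving out a replicate could not be run for the same reason.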
